A study of Mus musculus with 29 samples.

Results

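The windows described here are those named for a tumour necrosis factor (TNF) ligand or receptor gene in a table of percent DNA methylation (%DNAm) in mouse lung. A window is a run of about 50 CpG dinucleotides, or 100 CpG cytosines when the strands are counted apart, and the authors named each window for 1 gene that it overlapped. All autosomal windows whose gene was Tnf, or whose symbol began with Tnfsf or Tnfrsf and a number, were taken. This gave 177 windows of 29 genes on 11 autosomes, out of 260686 windows in the table, and every one had a value in all 29 libraries. By role, 10 genes encode ligands, 4 encode receptors with a death domain, 11 encode other receptors, 3 are classed as decoy receptors and 1 is the antisense RNA Tnfsf13os. A further 4 genes of the same naming pattern, Tnfrsf18, Tnfrsf22, Tnfsf12 and Tnfsf13, overlapped windows that carry the name of a neighbour and were not counted.

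Whole-genome enzymatic methyl-sequencing (WGMS) gave the values: enzymes convert cytosines that carry no methyl group, and the rest are read as methylated. The lung portion is labelled Lung (RML), and the mice were Balb/c female offspring aged 13 weeks. Sham offspring (n = 7) and Sham-OVA offspring (n = 7) were born to dams given saline, and PM (n = 7) and PM-OVA (n = 8) offspring to dams given fine particulate matter (PM2.5) into the nose before mating, through gestation and until weaning. The Sham-OVA and PM-OVA offspring were sensitised with ovalbumin (OVA) in an aluminium adjuvant and then breathed OVA aerosols, which induces allergic airways disease, whereas the Sham and PM offspring are labelled as given phosphate-buffered saline (PBS) in place of OVA. The litter of each library was not given in the sources used here, and whether libraries shared a litter was not tested.

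The TNF superfamily is a set of mostly membrane-bound or shed trimeric ligands and the receptors that bind them. Receptors with a death domain can start programmed cell death as well as NF-κB signalling, the other receptors recruit TRAF adaptors and mainly give survival or co-stimulatory signals, and decoy receptors bind a ligand without passing on a full signal. In the lung, these proteins are best known for inflammation driven by TNF, for co-stimulation of T cells by dendritic cells and other leucocytes, and for the survival of B cells and plasma cells. CpG-dense promoters are usually free of methylation, whereas CpG-poor promoters of genes used by leucocytes are often methylated in tissues made mostly of other cells.

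The sequences below belong to windows of Tnf, Tnfsf14, Tnfrsf13b and Tnfrsf1a that changed after OVA. They are written 5′ to 3′ on the strand of the gene in GRCm38, with each CpG in capitals. Methylation was measured at CpGs, but each value is an average over a whole window. The level of any single printed CpG is therefore not known. The first set gives 250 bases upstream of the RefSeq gene start for 3 genes whose start lay in a window that fell after OVA. The Tnf promoter was at chr17:35202008-35202257 (minus strand), the Tnfsf14 promoter at chr17:57194182-57194431 (minus strand) and the Tnfrsf13b promoter at chr11:61126505-61126754 (plus strand), and they held 10, 4 and 8 CpGs.

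Tnf promoter: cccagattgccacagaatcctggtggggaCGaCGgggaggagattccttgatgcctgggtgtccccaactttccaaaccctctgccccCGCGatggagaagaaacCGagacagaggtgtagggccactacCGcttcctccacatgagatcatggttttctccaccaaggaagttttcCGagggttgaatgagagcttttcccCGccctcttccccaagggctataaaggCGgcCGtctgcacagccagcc

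Tnfsf14 promoter: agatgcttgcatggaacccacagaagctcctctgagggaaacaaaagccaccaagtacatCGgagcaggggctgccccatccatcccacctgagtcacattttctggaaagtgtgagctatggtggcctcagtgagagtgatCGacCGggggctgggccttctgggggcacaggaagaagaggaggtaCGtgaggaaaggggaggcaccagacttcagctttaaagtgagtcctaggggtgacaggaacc

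Tnfrsf13b promoter: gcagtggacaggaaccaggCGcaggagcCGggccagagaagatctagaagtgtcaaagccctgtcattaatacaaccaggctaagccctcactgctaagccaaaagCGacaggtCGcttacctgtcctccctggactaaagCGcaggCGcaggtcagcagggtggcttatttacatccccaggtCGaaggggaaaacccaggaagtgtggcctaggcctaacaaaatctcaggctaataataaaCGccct

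In the RefSeq promoter table for GRCm38.p6, which adds 50 bases after the start, the median over 32851 promoters was 7 CpGs, and 23 of the 29 genes, not counting Tnfsf4 and Tnfrsf26 among others, had an entry. The entries of Tnf, Tnfsf14 and Tnfrsf13b held 11, 7 and 8 CpGs, whereas that of Tnfrsf11a, which encodes RANK, held 43 and that of Tnfrsf14, which encodes HVEM, held 2. The second set gives the most CpG-rich stretch, free of untranslated bases, in 3 windows inside genes. In Tnf it was at chr17:35200223-35200522 (minus strand) and lay wholly in coding sequence, with 10 CpGs in 300 bases. In Tnfrsf13b it was at chr11:61147334-61147633 (plus strand), with 29 CpGs in 300 bases of which 218 were coding. In Tnfrsf1a it was at chr6:125361841-125361990 (plus strand), with 16 CpGs in 150 coding bases.

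Tnf gene body: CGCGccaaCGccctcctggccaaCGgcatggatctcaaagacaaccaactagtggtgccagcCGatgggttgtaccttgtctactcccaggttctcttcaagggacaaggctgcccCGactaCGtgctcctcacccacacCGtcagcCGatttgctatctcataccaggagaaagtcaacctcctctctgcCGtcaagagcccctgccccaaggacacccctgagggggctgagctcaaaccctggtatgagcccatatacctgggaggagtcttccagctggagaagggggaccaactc

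Tnfrsf13b gene body: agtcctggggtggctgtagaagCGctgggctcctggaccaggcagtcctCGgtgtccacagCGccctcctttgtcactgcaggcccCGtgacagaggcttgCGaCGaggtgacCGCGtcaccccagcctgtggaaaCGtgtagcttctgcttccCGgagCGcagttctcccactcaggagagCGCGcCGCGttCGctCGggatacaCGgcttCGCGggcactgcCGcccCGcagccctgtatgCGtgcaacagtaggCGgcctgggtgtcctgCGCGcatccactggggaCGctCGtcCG

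Tnfrsf1a gene body: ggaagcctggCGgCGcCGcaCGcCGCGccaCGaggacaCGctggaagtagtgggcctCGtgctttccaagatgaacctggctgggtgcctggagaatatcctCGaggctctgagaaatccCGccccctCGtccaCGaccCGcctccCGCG

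The table holds percentages without counts, so the depth behind each value was unknown, and errors come from the spread between libraries. Libraries held values in 258952 to 260135 windows. Sham replicate 1 stood apart, with values in 1224 of 1230 Y chromosome windows against 29 to 46 in the other libraries, and a median %DNAm of 0.561% at 191 short X chromosome windows with gene starts against 24.4% to 32.5%. All libraries are described as female, so this library goes against its description, and differences without it are given beside the windows described in full.

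Unchallenged %DNAm ranged from 0.115% to 92.9% (means over the Sham libraries), with a median of 74.6% over the 177 windows and 76.9% over all tested windows. A window with the start of its own gene was present for 24 of the 29 genes, and these starts had a lower median, 42.9%, than the other member windows, 77.2%. A start here is that whole window, with a median length of 3850 bp, and can reach well beyond the promoter. Tnfrsf12a, which encodes the TWEAK receptor Fn14, had the lowest start window at 0.156% ± 0.233 (SD, n = 7). Starts under 20% were also found for Tnfrsf19, Tnfrsf1b, Tnfrsf13c and Tnfrsf11a, with means of 3.63%, 4.53%, 5.28% and 17.7%. These 5 are all receptors, and their start windows held between 31.8 and 60.5 CpGs per kb. The BAFF receptor Tnfrsf13c thus had an unmethylated start, whereas the related B-cell and plasma cell receptors Tnfrsf17 (BCMA) and Tnfrsf13b (TACI) had the highest starts, at 78.5% ± 1.07 and 83.0% ± 1.55 (SD, n = 7). The 9 ligand starts lay between 25.4% for Tnfsf11 (RANKL) and 64.5% for Tnfsf8 (CD30 ligand), with a median of 56.1% against 34.4% for the 15 receptor starts. %DNAm was lower where CpGs were denser, with Spearman's rho of -0.30 across the 177 windows and -0.25 across all tested windows. These windows share libraries and base composition, and the rho is a description.

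**Figure D1:**
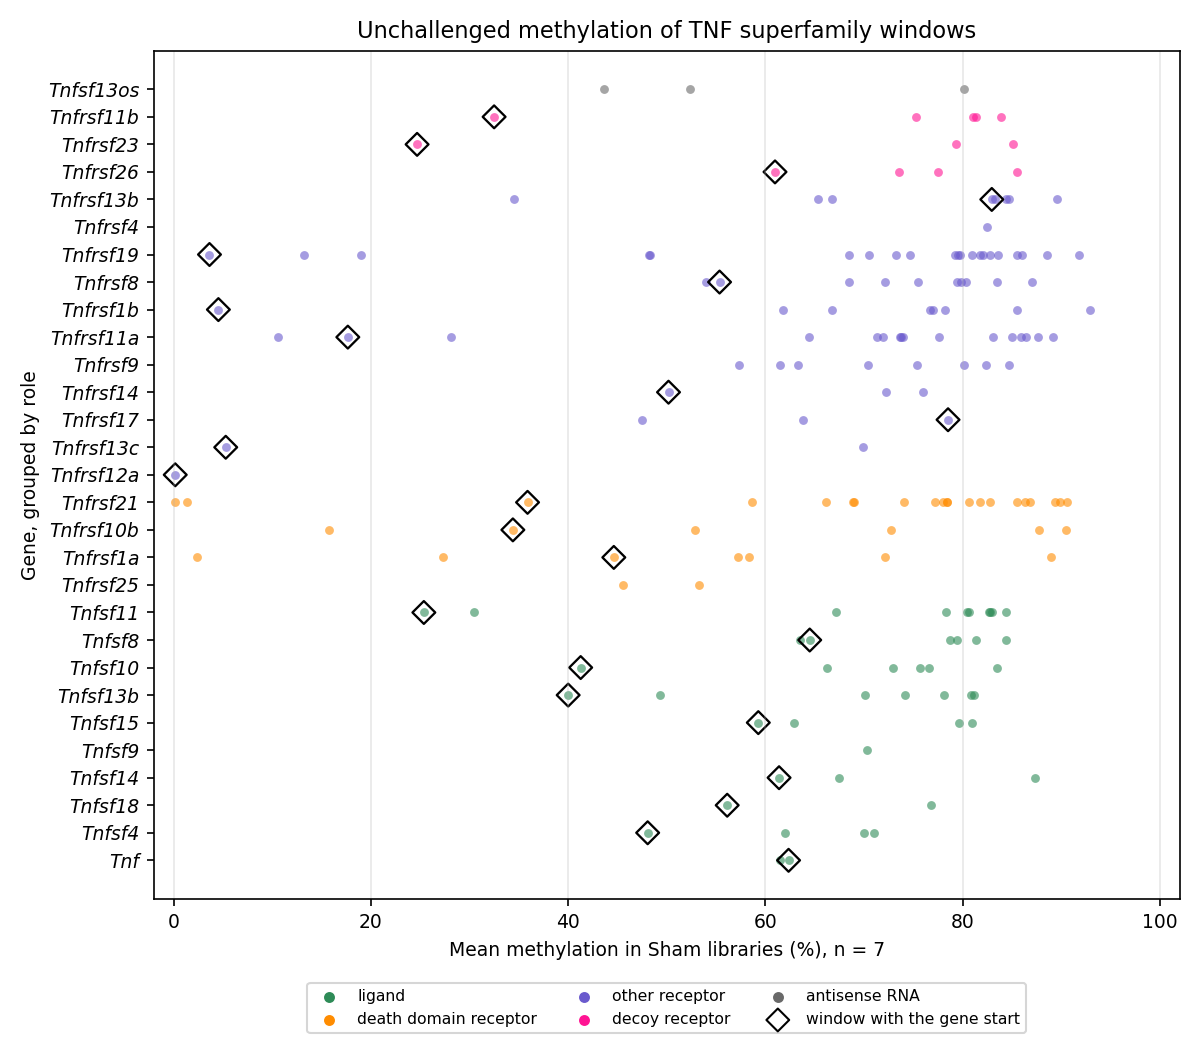
Mean %DNAm of each window in the 7 Sham libraries (horizontal axis, %) for the 29 genes (vertical axis), coloured by role, with diamonds around windows that hold the start of the gene. Except in Tnf and Tnfrsf17, start windows sit to the left of most other windows of their gene, and 5 receptor starts lie under 20%, whereas the starts of Tnfrsf17 and Tnfrsf13b lie near 80%.

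OVA challenge changed many of these windows, with the widest falls at Tnfsf4, Tnf and Tnfsf14 and the widest rise in Tnfrsf13b. A window counts as changed at an adjusted p under 0.05 in limma's moderated test across all 259167 tested windows, and as a differentially methylated region (DMR) if its group means also differ by at least 10 percentage points. For OVA in Sham, 5 of the 177 windows were DMRs (2 higher, 3 lower), against 0.775% of all tested windows, made of 0.479% higher and 0.296% lower. For OVA in PM, 5 were DMRs (1 higher, 4 lower), against 0.584% of all tested windows, made of 0.263% higher and 0.321% lower. The union was 6 windows in the 5 genes Tnf, Tnfsf14, Tnfsf4, Tnfrsf13b and Tnfrsf1a, and 4 of them were DMRs in both comparisons, against 0.458% of all tested windows.

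Without a minimum difference, 78 windows changed in Sham (23 higher, 55 lower), against a background of 35.6% of all windows, made of 13.3% higher and 22.3% lower. In PM, 95 changed (19 higher, 76 lower), against 44.1%, made of 9.26% higher and 34.8% lower. Of the 177 windows, 67 changed in both comparisons with the same sign (14 higher, 53 lower), against 27.3% of all windows. No member changed in both with opposite signs, and only 46 of all 259167 tested windows did. The direction depended in part on a shift of whole libraries, since the median difference over all tested windows was -0.41 points in Sham and -1.03 in PM, beside -0.63 and -1.40 over the members. After each library was centred on its median deviation, 79 members changed in Sham (32 higher, 47 lower) and 75 in PM (32 higher, 43 lower), while all windows divided nearly evenly, with 18.3% higher and 17.8% lower in Sham and 18.9% and 18.7% in PM. Leaving out Sham replicate 1 gave 69 changed members and 5 DMRs for the same comparison in Sham, and at the 6 DMR windows its differences then ran from -16.5 to 19.6 points.

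The groups with and without OVA did not overlap at all in 27 member windows in Sham and 32 in PM, and the background was 8.58% and 12.0% of all windows. Member differences in Sham and in PM, which share no library, had a Spearman's rho of 0.90 across windows, beside 0.84 for all tested windows, and 146 of 177 had the same sign, beside 81.8% of all windows. In whole lung, a change in the share of each cell type and a change of methylation within cells cannot be told apart.

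**Figure D2:**
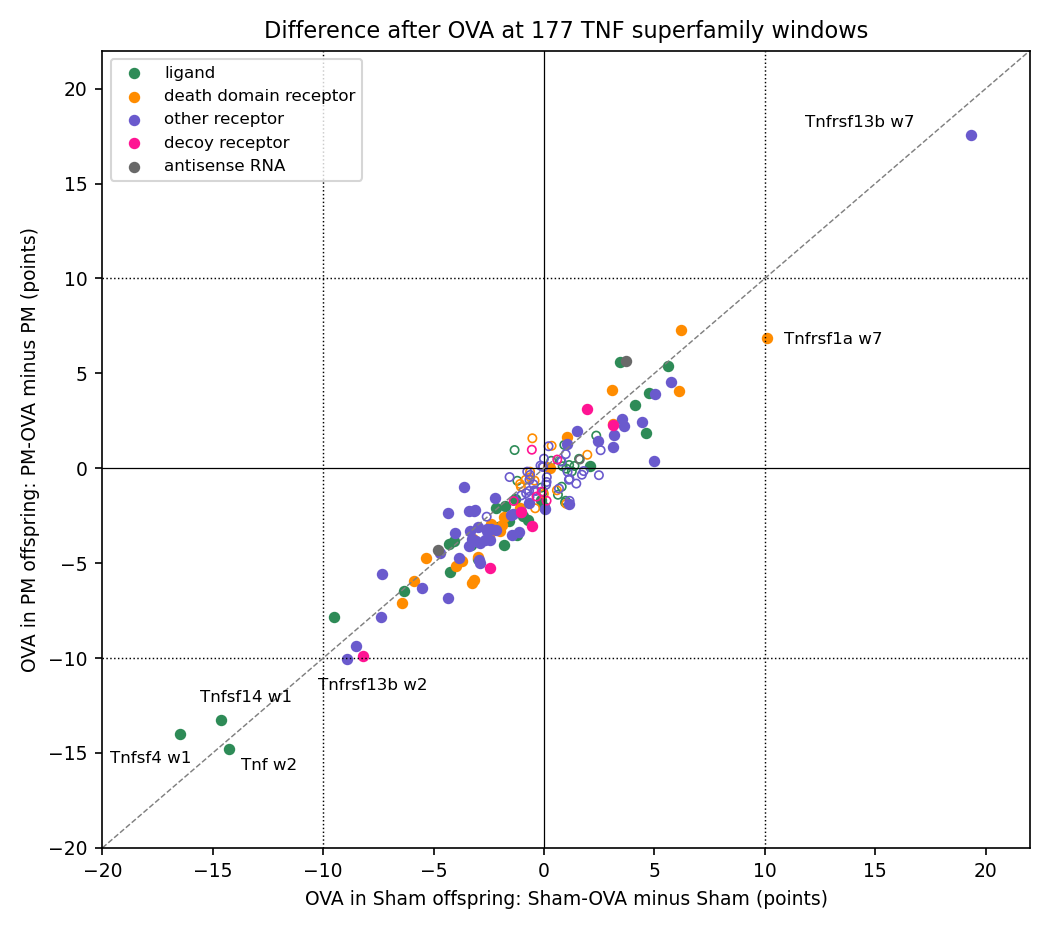
Difference of mean %DNAm after OVA in Sham offspring (horizontal axis, points) and in PM offspring (vertical axis, points) for the 177 windows, coloured by role, with filled points where the adjusted p was under 0.05 in either comparison and dotted lines at 10 points. The points lie along the dashed line of equal differences, and the 6 labelled DMR windows (w, window number from the 5′ end of the gene) lie at both ends.

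Among ligands, 17 of 45 windows changed in Sham (6 higher, 11 lower) and 25 in PM (4 higher, 21 lower), or 37.8% and 55.6% against the 35.6% and 44.1% of all windows. Their 3 DMRs, in Tnf, Tnfsf14 and Tnfsf4, fell in both comparisons. Tnf encodes the founding cytokine of the family, made above all by macrophages and T cells, and it had 2 windows, numbered here from the 5′ end. Window 2 of Tnf (chr17:35198982-35201516, GRCm38) covered the body and 3′ end of the gene, with 1286 of its 2535 bp exonic. In Sham libraries it ran from 57.4% to 62.9% with a median of 62.0%, and in Sham-OVA libraries from 44.1% to 56.7% with a median of 46.0%. In PM libraries it ran from 59.8% to 63.3% with a median of 62.0%, and in PM-OVA libraries from 40.7% to 51.2% with a median of 47.3%. No library with OVA reached the level of any library without it in either comparison. The mean fell by 14.3 points in Sham (log2 ratio -0.82, SE 0.09, limma adjusted p = 2.31e-07) and by 14.8 points in PM (log2 ratio -0.85, SE 0.09, adjusted p = 4.93e-08). Without Sham replicate 1 the difference in Sham was -14.3 points. The log2 ratio here is that of methylated to unmethylated percentage. Window 1 of Tnf (chr17:35201612-35204459), which holds the promoter shown above and also overlaps the neighbouring lymphotoxin gene Lta, fell by less, from 62.3% ± 0.876 to 56.0% ± 2.51 in Sham (SD, n = 7 and 7) and from 62.7% ± 1.69 to 56.2% ± 2.70 in PM (n = 7 and 8). Both falls passed the limma test, with adjusted p = 7.34e-05 and 2.80e-05, and again the groups did not overlap. In Sham the difference was -6.40 points without Sham replicate 1.

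Tnfsf14 encodes LIGHT, a T-cell ligand of HVEM and of the lymphotoxin-β receptor. Window 1 of Tnfsf14 (chr17:57193305-57197153) holds the start and the promoter shown above. In Sham libraries it ran from 59.3% to 63.7% with a median of 60.9%, and in Sham-OVA libraries from 43.7% to 50.5% with a median of 45.8%. In PM libraries it ran from 53.7% to 64.0% with a median of 62.6%, and in PM-OVA libraries from 44.5% to 52.5% with a median of 47.5%. The groups were apart in both comparisons, with falls of 14.6 points in Sham (log2 ratio -0.84, SE 0.08, limma adjusted p = 1.97e-08) and 13.3 points in PM (log2 ratio -0.76, SE 0.08, adjusted p = 2.72e-08). Leaving out Sham replicate 1 gave -14.4 points in Sham. Farther along the gene the differences were small. Windows 2 and 3 differed by 0.0159 and -2.10 points in Sham, neither past the test, and fell by 2.07 and 3.08 points in PM (adjusted p = 0.0153 and 0.00366).

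Tnfsf4 encodes OX40 ligand, a co-stimulator of T cells carried by dendritic cells and best known in allergy for favouring T helper 2 responses. Window 1 of Tnfsf4 (chr1:161395251-161397818), with the gene start, showed the largest fall among the 177 windows in Sham. In Sham libraries it ran from 46.2% to 52.2% with a median of 47.7%, and in Sham-OVA libraries from 27.4% to 37.6% with a median of 30.8%. In PM libraries it ran from 43.8% to 50.9% with a median of 46.2%, and in PM-OVA libraries from 29.3% to 38.7% with a median of 32.4%. Every library with OVA was below every library without it, and the mean fell by 16.5 points in Sham (log2 ratio -0.99, SE 0.09, limma adjusted p = 1.63e-08) and fell by 14.01 points in PM (log2 ratio -0.83, SE 0.09, adjusted p = 6.80e-08). The value in Sham was -16.5 points without Sham replicate 1 as well. The 3 windows downstream differed by between -1.75 and -1.33 points in Sham and none passed the test there, whereas windows 2 and 3 fell by 1.99 and 2.80 points in PM (adjusted p = 0.0274 and 0.00236).

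Of the 9 ligand starts, 7 changed in Sham (2 higher, 5 lower) and 7 in PM (1 higher, 6 lower). Of the 15 receptor starts, 4 were lower in Sham and 5 were lower in PM. This is 77.8% in both comparisons for ligand starts, and 26.7% and 33.3% for receptor starts, against 28.7% and 38.0% of all windows with a gene start. The median difference was -3.33 and -4.07 points for ligand starts, -0.63 and -0.61 for receptor starts, and -0.37 and -0.93 for all windows with a gene start. This difference between ligands and receptors was not tested, nor was the part of the starting level in it. The 9 ligand starts began between 25.4% and 64.5%, whereas 5 of the 15 receptor starts began under 20%. Of members between 20% and 70% in Sham libraries, 36 of 56 changed in Sham and 34 in PM. Of members under 20%, 2 of 12 changed in Sham and 3 in PM. Among all tested windows these shares were 37.2% and 39.3% between 20% and 70%, and 24.8% and 23.2% under 20%. The start of Tnfsf8, the CD30 ligand of activated T cells, fell from 64.5% ± 3.17 to 55.0% ± 1.60 in Sham (SD, n = 7 and 7) and from 65.3% ± 1.56 to 57.5% ± 1.58 in PM (n = 7 and 8), with limma adjusted p = 3.86e-07 and 2.14e-06. It came within 0.5 points of a DMR in Sham, with a difference of -9.37 points without Sham replicate 1. The start of Tnfsf18, which encodes the ligand of the T-cell receptor GITR, fell by 3.33 points in Sham and fell by 4.05 points in PM, with adjusted p = 0.00140 and 9.21e-05. Without Sham replicate 1 it differed by -3.20 points in Sham. The start windows of Tnfsf8 and Tnfsf18 span 6931 and 6778 bp.

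A pair of ligand starts went up instead, in windows of 4510 bp (Tnfsf15) and 6720 bp (Tnfsf10). The start of Tnfsf15, which encodes TL1A, the ligand of the death domain receptor Tnfrsf25, rose from 59.3% ± 3.12 to 64.9% ± 3.13 in Sham (SD, n = 7 and 7) and from 60.7% ± 2.21 to 66.1% ± 1.70 in PM (n = 7 and 8), with limma adjusted p = 0.00190 and 0.00143. The start of Tnfsf10, the death ligand TRAIL, rose by 4.62 points in Sham (adjusted p = 0.0216) and differed by 1.87 points in PM (adjusted p = 0.333). Its call in Sham was lost without Sham-OVA replicate 4, Sham replicate 5 or Sham replicate 7, with adjusted p = 0.05002, 0.0528 and 0.0635. Without Sham replicate 1 the differences in Sham were 5.36 points for Tnfsf15 and 5.14 for Tnfsf10, both past the test. Over the whole of Tnfsf10, all windows that changed were higher, 3 of 6 in Sham and 2 of 6 in PM, against 35.6% and 44.1% of all windows changed in either direction.

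The start of Tnfsf13b, which encodes the B-cell survival factor BAFF, fell by 4.07 points in PM (adjusted p = 0.00490) and differed by -1.81 points in Sham (adjusted p = 0.228). Without Sham replicate 1 the value in Sham was -1.68 points. With centred libraries the call in PM was lost (adjusted p = 0.0798). The difference between these responses did not pass the interaction test (adjusted p = 0.773). The start of Tnfsf11 did not pass the test in either comparison, and the single window of Tnfsf9 fell by 4.07 and 3.81 points (adjusted p = 0.00953 and 0.00924).

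**Figure D3:**
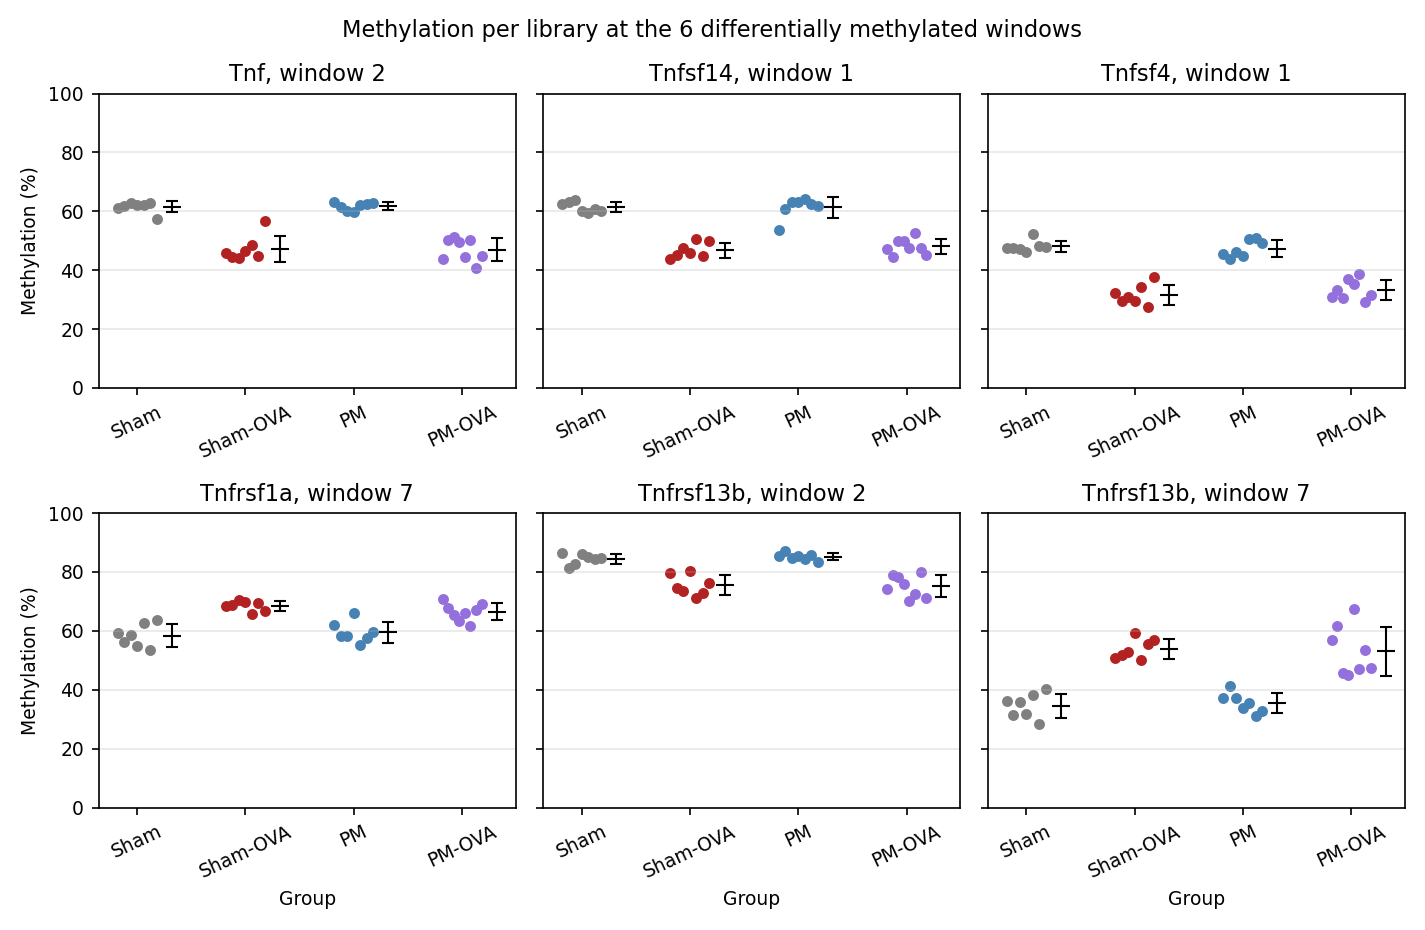
%DNAm of each library (vertical axis) in the 4 groups (horizontal axis) at the 6 DMR windows, with the bar at the right of each group giving the mean and SD. The libraries with OVA lie below those without it for the starts of Tnfsf14 and Tnfsf4, the body of Tnf and window 2 of Tnfrsf13b, and above them for window 7 of Tnfrsf13b, where PM-OVA libraries spread from 45.0% to 67.4%.

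Among receptors with a death domain, 18 of 36 windows changed in Sham (5 higher, 13 lower) and 20 in PM (5 higher, 15 lower), against 35.6% and 44.1% of all windows. The genes differed in direction. All changes in Tnfrsf1a, which encodes TNFR1, the widely expressed main receptor of TNF, were higher, at 3 of its 7 windows in both comparisons. In Tnfrsf21, which encodes death receptor DR6, 14 of 21 windows changed in Sham (2 higher, 12 lower) and 14 in PM (all lower), and no single window of it was a DMR.

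Window 7 of Tnfrsf1a (chr6:125361810-125363465) lies at the 3′ end of the gene, holds its last coding stretch shown above, and overlaps the next gene, Plekhg6. In Sham libraries it ran from 53.5% to 63.5% with a median of 58.7%, and in Sham-OVA libraries from 65.8% to 70.5% with a median of 68.6%. In PM libraries it ran from 55.2% to 66.2% with a median of 58.3%, and in PM-OVA libraries from 61.8% to 70.8% with a median of 66.6%. The groups were apart in Sham and overlapped in PM. The mean rose by 10.1 points in Sham (log2 ratio 0.62, SE 0.10, limma adjusted p = 1.57e-05) and by 6.87 points in PM (log2 ratio 0.42, SE 0.09, adjusted p = 6.93e-04), so it was a DMR in Sham alone. The difference in Sham was 10.2 points without Sham replicate 1. The interaction gave adjusted p = 0.752, so a difference between Sham and PM offspring was not shown, and in 6 of 29 fits that each left out 1 library the difference in Sham dropped under 10 points, to 9.31 at the lowest.

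Upstream in Tnfrsf1a, window 2 rose from 2.35% ± 0.572 to 5.47% ± 1.15 in Sham (SD, n = 7 and 7) and from 2.53% ± 0.687 to 4.88% ± 0.997 in PM (n = 7 and 8), with limma adjusted p = 2.07e-06 and 2.24e-05. Window 4 rose by 6.22 and 7.27 points, while windows 1, 3, 5 and 6 differed by between -0.835 and -0.401 points in Sham and by between -2.11 and 1.58 points in PM, none past the test. In Tnfrsf21, the windows that fell lay along most of the gene downstream of its unmethylated part, with falls of up to 6.43 points in Sham and 7.11 points in PM, both at window 7. Its start window differed by -0.616 and -0.47 points, neither past the test. Tnfrsf10b, the receptor of TRAIL, changed at 1 of 6 windows in Sham and 2 of 6 in PM, under the 35.6% and 44.1% of all windows. Tnfrsf25, the receptor of TL1A, had 2 windows, of which 1 changed, rising by 4.13 points in PM (adjusted p = 0.0260).

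Among the other receptors, 38 of 81 windows changed in Sham (10 higher, 28 lower) and 42 in PM (7 higher, 35 lower), or 46.9% and 51.9% against 35.6% and 44.1% of all windows. Tnfrsf13b encodes TACI, a receptor of BAFF and APRIL on B cells, and it held both the largest rise of the superfamily and a DMR that fell. Window 7 of Tnfrsf13b (chr11:61147126-61148005) is a CpG-dense stretch of 880 bp, with 56.8 CpGs per kb and 590 exonic bases, close to the 3′ end of the gene. In Sham libraries it ran from 28.5% to 40.1% with a median of 35.8%, and in Sham-OVA libraries from 50.1% to 59.3% with a median of 52.9%. In PM libraries it ran from 30.9% to 41.3% with a median of 35.5%, and in PM-OVA libraries from 45.0% to 67.4% with a median of 50.4%. All libraries with OVA were higher than all libraries without it. The mean rose by 19.4 points in Sham (log2 ratio 1.13, SE 0.16, limma adjusted p = 4.15e-06) and by 17.6 points in PM (log2 ratio 1.03, SE 0.15, adjusted p = 6.73e-06).

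The other windows of Tnfrsf13b that changed were lower, with the widest falls at the 5′ end. Window 1 of Tnfrsf13b (chr11:61122885-61127015), with the promoter shown above, fell from 83.0% ± 1.55 to 75.6% ± 3.21 in Sham (SD, n = 7 and 7) and from 82.4% ± 1.19 to 74.6% ± 2.39 in PM (n = 7 and 8), with limma adjusted p = 5.98e-06 and 1.47e-06. In window 2 (chr11:61127016-61129641), the next one, Sham libraries ran from 81.3% to 86.5% with a median of 84.6%, and Sham-OVA libraries from 71.1% to 80.3% with a median of 74.7%. PM libraries ran from 83.5% to 87.3% with a median of 85.3%, and PM-OVA libraries from 70.2% to 79.9% with a median of 75.0%. The groups were apart in both comparisons. The fall was 8.92 points in Sham (log2 ratio -0.78, SE 0.11, limma adjusted p = 7.64e-06) and 10.1 points in PM (log2 ratio -0.88, SE 0.11, adjusted p = 5.31e-07), just under and just over the minimum for a DMR. The interaction gave adjusted p = 0.900, and in 6 of 29 fits that each left out 1 library, as well as with centred libraries, the difference in PM came under 10 points in size, with -9.08 as the smallest. Without Sham replicate 1 the differences in Sham were -6.95 points at window 1, -8.56 at window 2 and 19.6 at window 7. The remaining 5 windows of Tnfrsf13b in the full set of libraries differed by between -3.87 and 0.118 points in Sham and between -4.81 and -0.723 points in PM. Of these, 4 were lower in Sham and 3 were lower in PM by the test.

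**Figure D4:**
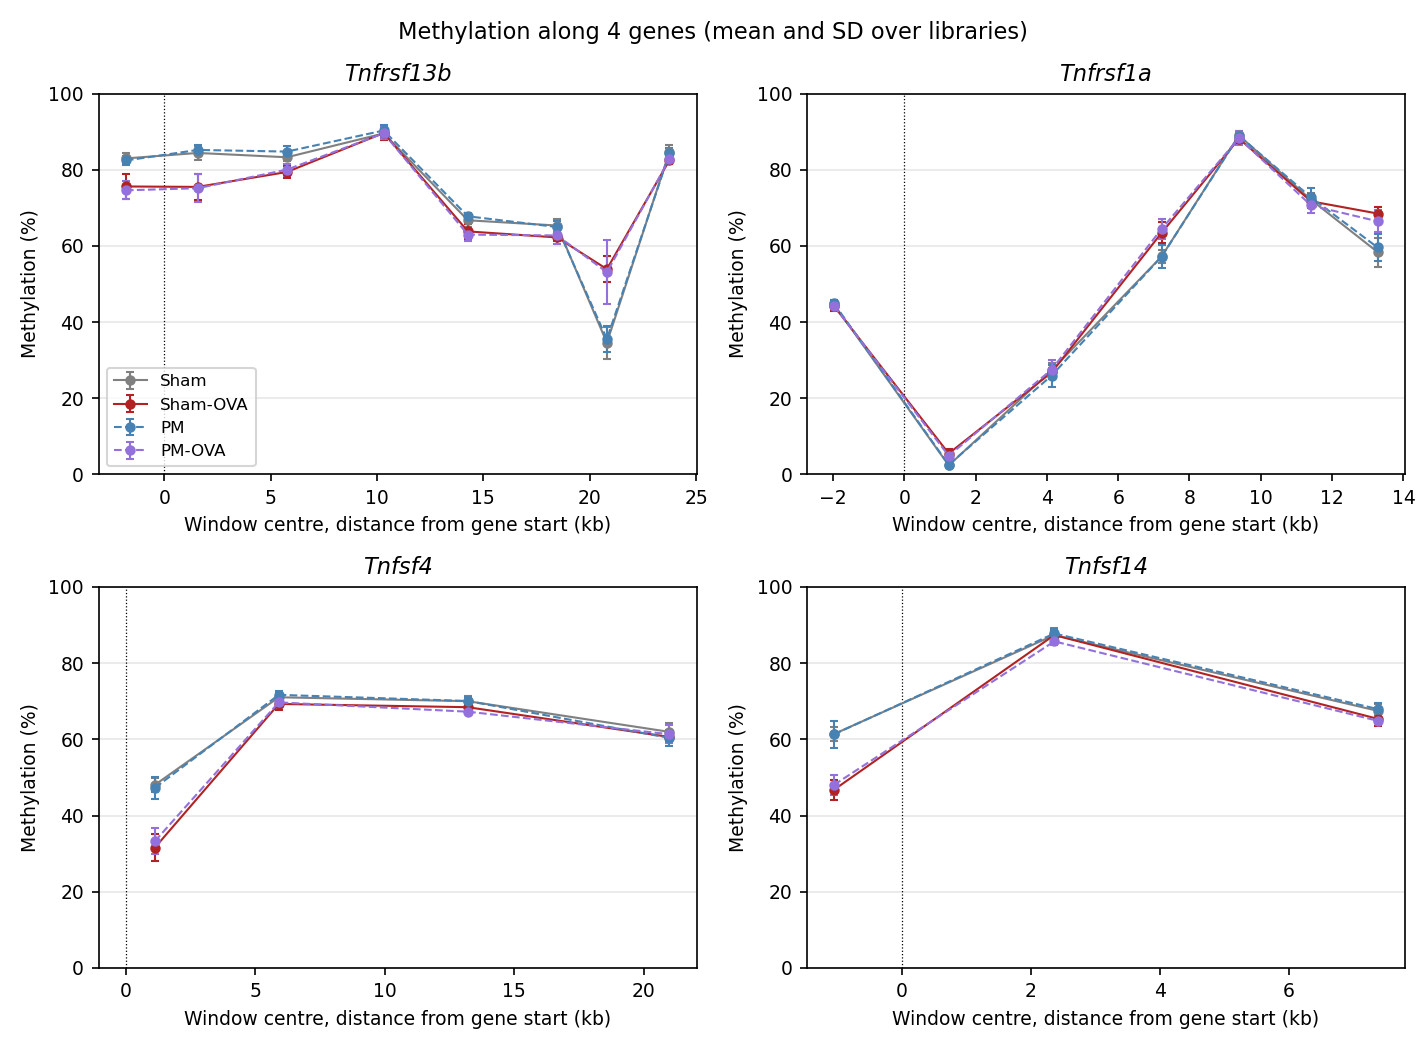
Mean %DNAm and SD over the libraries of each group (vertical axis) at each window of Tnfrsf13b, Tnfrsf1a, Tnfsf4 and Tnfsf14, by the distance of the window centre from the gene start (horizontal axis, kb). Lines with and without OVA part at the start of Tnfsf4 and Tnfsf14, and in Tnfrsf13b OVA libraries are lower at the 5′ end and higher in the dip near the 3′ end.

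The relatives of TACI changed in part. The unmethylated start of the BAFF receptor gene Tnfrsf13c did not pass the test, with means of 5.28% ± 0.878 in Sham and 5.24% ± 0.879 in Sham-OVA (SD, n = 7 and 7), and its second window fell by 8.50 points in Sham and 9.39 points in PM (limma adjusted p = 1.88e-04 and 2.95e-05). The start of Tnfrsf17, the plasma cell receptor BCMA, fell by 3.37 points in PM (adjusted p = 0.00789, and 0.0526 with centred libraries) and differed by -1.15 points in Sham (adjusted p = 0.439). The latter was -0.899 points without Sham replicate 1.

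The start of Tnfrsf14, which encodes HVEM, the receptor of LIGHT, fell from 50.2% ± 1.49 to 44.6% ± 2.40 in Sham (SD, n = 7 and 7) and from 51.2% ± 1.62 to 44.9% ± 1.67 in PM (n = 7 and 8), with limma adjusted p = 1.05e-04 and 9.76e-06. In Sham the difference came to -5.39 points without Sham replicate 1. HVEM and its ligand thus both had a start that fell, and so did CD30 and its ligand. Agreement between ligands and receptors was not tested, and other pairs differed. The starts of Tnfsf15 and Tnfsf10 rose in Sham, where no window of their receptor genes Tnfrsf25 and Tnfrsf10b was higher. In PM each of these receptor genes had 1 higher window. The start of Tnfrsf8, which encodes CD30, a receptor of activated lymphocytes, fell by 2.91 and 3.91 points (adjusted p = 0.00909 and 4.04e-04), and all windows of Tnfrsf8 that changed were lower, 4 of 10 in Sham and 5 of 10 in PM, near the 35.6% and 44.1% of all windows that changed. The start differed by -3.06 points in Sham without Sham replicate 1.

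Tnfrsf1b, the TNF receptor TNFR2 of leucocytes and endothelium, changed at 4 of 8 windows in Sham, all lower, and at 6 in PM (1 higher, 5 lower). The 3 windows of Tnfrsf1a that changed were all higher, and the contrast between the receptors was not tested. Tnfrsf19, which encodes TROY, changed at 10 of 21 windows in Sham (4 higher, 6 lower) and 9 in PM (3 higher, 6 lower), and Tnfrsf11a at 5 of 16 (3 higher, 2 lower) and 7 of 16 (2 higher, 5 lower). These counts stand against 35.6% and 44.1% of all windows, which the counts of Tnfrsf11a and that of Tnfrsf19 in PM lie near. Tnfrsf4, which encodes OX40, the receptor of Tnfsf4, had 1 window, which differed by -0.687 points in Sham (adjusted p = 0.463) and fell by 1.81 points in PM (adjusted p = 0.0186). The single window of Tnfrsf12a differed by -0.07 points in Sham and 0.09 in PM, neither past the test.

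The decoy receptor genes changed at 3 of 12 windows in Sham (1 higher, 2 lower) and 6 in PM (2 higher, 4 lower), against 35.6% and 44.1% of all windows. The start of Tnfrsf26 (chr7:143624899-143632945), in a window that also overlaps E230032D23Rik, fell from 61.0% ± 2.43 to 52.8% ± 2.06 in Sham (SD, n = 7 and 7) and from 62.2% ± 0.888 to 52.3% ± 1.96 in PM (n = 7 and 8), with limma adjusted p = 1.12e-06 and 2.72e-08. The difference in Sham was -7.43 points without Sham replicate 1. The fall in PM was just short of 10 points, and the groups did not overlap in either comparison. Tnfrsf11b, which encodes osteoprotegerin, the soluble decoy of RANKL, changed at 1 of 5 windows in Sham and 2 of 5 in PM, all lower. The 3 windows named for the antisense RNA Tnfsf13os, which lie over Tnfsf12 and Tnfsf13, included 1 that was higher and 1 that was lower in each comparison.

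The 12 member windows with at least 30 CpGs per kb included 3 that were higher and none that were lower, in Sham and in PM alike, whereas the 165 sparser ones had 20 higher and 55 lower in Sham and 16 higher and 76 lower in PM. All tested windows of that density divided the same way, with 4432 higher and 1020 lower of 22780 in Sham and 3722 higher and 1308 lower in PM. No DMR lay in the 12 members under 20% in Sham libraries. DMRs made up 0.775% of all tested windows in Sham and 0.584% in PM, so none among 12 says little. Of the 6 DMR windows, 5 began between 20% and 70%, window 2 of Tnfrsf13b being the exception. Over all tested windows, 1559 of 2008 DMRs in Sham and 1052 of 1513 in PM began in that range.

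None of the 177 windows passed the test for maternal PM2.5 exposure. PM against Sham, PM-OVA against Sham-OVA, and the interaction, which asks whether the OVA difference in PM offspring differed from that in Sham offspring, each gave 0 windows at an adjusted p under 0.05 by limma, and 0 of all 259167 tested. At an unadjusted p under 0.05, 8 members (4.52%), 9 members (5.08%) and 12 members (6.78%) passed, against 5.79%, 5.96% and 7.40% of all windows. The smallest p for PM without OVA and for the interaction came from window 9 of Tnfrsf11a (chr1:105813579-105816848), in the gene of the RANKL receptor. Its means were 73.9% ± 1.82 in Sham, 78.9% ± 1.17 in Sham-OVA, 76.6% ± 1.68 in PM and 77.0% ± 1.31 in PM-OVA (SD, n = 7, 7, 7 and 8), with limma adjusted p = 0.805 for PM without OVA and 0.536 for the interaction. Without Sham replicate 1 these were 0.840 and 0.549. For PM with OVA the smallest p came from window 2 of Tnfsf8 (chr4:63853725-63860468), at 80.2% ± 1.72 in Sham-OVA and 77.2% ± 1.08 in PM-OVA (SD, n = 7 and 8), with limma adjusted p = 0.777. At the 6 DMR windows the PM and Sham means without OVA differed by at most 1.22 points, and those with OVA by at most 2.04 points.

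The rest of the pathway was described from 2 lists. Superfamily genes under other symbols (Lta, Ltb, Ltbr, Fas, Fasl, Cd40, Cd70, Ngfr, Edar and Relt, with Cd27 lacking a window) had 56 windows, of which 29 changed in Sham (11 higher, 18 lower) and 26 in PM (5 higher, 21 lower), or 51.8% and 46.4% against 35.6% and 44.1% of all windows. A window of Ltbr, the lymphotoxin-β receptor, rose from 38.9% ± 2.83 to 49.1% ± 2.68 in Sham (SD, n = 7 and 7), where it was a DMR, and rose by 9.92 points in PM, with limma adjusted p = 8.07e-05 and 4.43e-05 and 0.995 for the interaction. A window of Relt fell by 11.0 points in PM, where it was a DMR, and fell by 9.79 points in Sham, with adjusted p = 1.17e-08 and 1.63e-07 and 0.884 for the interaction. The 26 genes of TNF receptor signalling (Traf1 to Traf6, Tradd, Ripk1, Fadd, Casp8, Cflar, Birc2, Birc3, Map3k7, Map3k14, Ikbkb, Chuk, Nfkb1, Nfkb2, Rela, Relb, Rel, Nfkbia, Tnfaip3, Tnip1 and Cyld) had 235 windows, of which 95 changed in Sham (38 higher, 57 lower) and 99 in PM (27 higher, 72 lower), or 40.4% and 42.1% against the same background. Their median difference was -0.03 and -0.18 points, beside -0.41 and -1.03 over all windows. Their DMRs, 3 in Sham and 5 in PM, were all lower, or 1.28% and 2.13% of the windows against 0.775% and 0.584% of all windows in either direction and 0.296% and 0.321% lower. A window of Map3k14, which encodes NIK, the kinase of non-canonical NF-κB signalling, fell from 60.5% to 37.7% in Sham and from 62.2% to 39.7% in PM, in a window that overlaps 1700028N14Rik. Windows of the adaptor gene Traf1 and of Tnfaip3, which encodes A20, an inhibitor of NF-κB signalling, fell by 12.7 and 11.0 points in Sham and by 12.0 and 12.8 points in PM. A window of Cflar, an inhibitor of caspase 8, fell by 10.9 points in PM, where it was a DMR, and fell by 8.85 points in Sham (adjusted p = 9.68e-09 and 5.16e-07, and 0.778 for the interaction). A window of Nfkbia, the NF-κB inhibitor IκBα, fell by 10.5 points in PM, also a DMR, and fell by 7.75 points in Sham (adjusted p = 9.69e-07 and 1.19e-04, and 0.767 for the interaction).

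Windows of genes of leucocytes and of resident lung cells were described beside these, since the table holds no expression values by which cell types could be checked. The leucocyte list, 115 windows of 24 genes (among them Ptprc, Cd3e, Lck, Itgam, Itgax, Csf1r, Siglecf and Epx), had a mean %DNAm per library of 69.4% to 70.7% in Sham and 67.1% to 68.7% in Sham-OVA, and of 70.2% to 71.2% in PM and 67.1% to 68.3% in PM-OVA, with no overlap in either comparison. Of these windows 20 were higher and 47 lower in Sham, and 14 higher and 54 lower in PM, or 58.3% and 59.1% changed against 35.6% and 44.1% of all windows. The resident cell list, 213 windows of 26 genes (Sftpc, Sftpb, Sftpa1, Sftpd, Abca3, Lamp3, Ager, Hopx, Aqp5, Pdpn, Scgb1a1, Scgb3a2, Foxj1, Cdh1, Epcam, Nkx2-1, Pecam1, Cdh5, Tek, Kdr, Cldn5, Col1a1, Col1a2, Pdgfra, Acta2 and Myh11), had a mean %DNAm per library of 61.6% to 63.3% in Sham and 62.5% to 64.3% in Sham-OVA, and of 61.6% to 63.8% in PM and 62.4% to 63.7% in PM-OVA, and the groups overlapped in both comparisons. Of these windows 69 were higher and 29 lower in Sham, and 55 higher and 43 lower in PM, or 46.0% changed in both, which in PM is near the share of all windows. The part of cell composition in the differences at the TNF superfamily windows was not tested.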

How the data were processed

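Reads had been trimmed (Trim Galore) and aligned to GRCm38, where DRAGEN called methylation, and the authors then averaged a percentage per base over each window with enough informative CpGs, keeping windows that overlap a gene. The deposited values are percent methylation per window and library, with no normalisation between libraries stated and with no counts or coverage, so neither a count test nor the study's library size covariate could be used. GRCm38 is the genome of strain C57BL/6J, whereas the animals were Balb/c, and CpGs that differ between the strains were not examined.

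Groups came from the treatment labels. Windows with at least 3 values in each group (259167, leaving out 1519) were tested with limma 3.58.1 in R 4.3.3 on the log2 ratio of methylated to unmethylated percentage after adding 1 point to each. All 29 libraries were fitted with 4 group means, p-values were 2-sided, and Benjamini-Hochberg adjustment covered all tested windows. Differences in points are differences of group means. Gene starts and exons came from GENCODE M21, and tables were handled with Python 3.11.15, pandas 2.3.3, numpy 2.4.6 and the data.table package (1.17.8). The fit was also run on simulated data, and the outcome is not given here. The members and lists were chosen with earlier results of these data known. Windows named in full were the DMRs, gene starts past the test and the smallest p for each comparison of PM with Sham. Other windows were chosen after their values were seen. Alternatives were another scale, added value, centring, threshold, set of libraries, set of windows, and a replicate block.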

Additional observations from a re-analysis of the deposited data

Results flagged for a closer look

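Among 76 groups of libraries at the 19 windows described in full, 5 held a library far from the rest by Dixon's ratio, where chance alone would give about 1 in 20 groups. At window 2 of Tnf, Sham replicate 7 was the lowest of its group at 57.4% (nearest 61.3%), and Sham-OVA replicate 7 the highest at 56.7% (nearest 48.5%). At window 1 of Tnfsf14, PM replicate 1 was lowest at 53.7% (nearest 60.7%). At window 1 of Tnfsf4, Sham replicate 5 was highest at 52.2% (nearest 48.1%). At window 9 of Tnfrsf11a, Sham replicate 7 was lowest at 70.1% (nearest 73.2%). Each of the Tnf, Tnfsf14 and Tnfsf4 windows was still a DMR in both comparisons when any 1 library was left out.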

How the results depend on the processing

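The stricter adjusted p of 0.000001 left 3 DMRs and 4 changed windows for OVA in Sham, and 4 DMRs and 8 changed windows for OVA in PM. A minimum difference of 5 points gave 21 DMRs in Sham and 25 in PM. The share of all tested windows called under these settings was not worked out. Without 1 library at a time, DMRs numbered 4 to 6 in Sham and 4 to 7 in PM, changed windows 69 to 79 and 87 to 96, and the 3 comparisons on PM exposure gave 0 throughout. The other alternatives kept each total within 1.5 times of the value reported, while centred libraries moved the split for OVA in PM from 19 higher and 76 lower to 32 and 43. No result at a named window reversed. Of 1368 results at named windows, 27 lost the test, of which 22 were under the stricter p, and the other 5 are given with Tnfsf10, Tnfsf13b and Tnfrsf17. With the replicate number as a block, 5 DMRs were called in each comparison, with 76 changed windows in Sham and 89 in PM. Over 42 pairs of libraries with the same number the correlation of deviations was -0.04 to 0.10 (median 0.01). For 273 pairs with different numbers it was -0.10 to 0.09 (median -0.002). These numbers come from the sample titles, and some differ from those in the library names. Pairing by library name or by litter was not checked.

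The depth behind each window is unknown, so no counting error is given and no coverage minimum was tried. The fit on the groups of the contrast alone was not run for the interaction, which needs all 4 groups.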
